A study of Homo sapiens with 4 samples.

Results

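Semaphorins are secreted or membrane-bound guidance proteins, plexins are their transmembrane receptors, and neuropilins are co-receptors that hold secreted semaphorins at the cell surface. The genes of these families were found among the Ensembl identifiers of 4 RNA sequencing libraries by their GENCODE protein-coding symbols (SEMA followed by a number and a letter, PLXN followed by A to D and an optional number, NRP1 and NRP2). The members were chosen by their symbols, but the families were selected with the myr-AKT1 and vector values of these same libraries known, so all differences in that contrast are given as descriptions. They held 31 genes, 20 semaphorins, 9 plexins and 2 neuropilins, of 60558 identifiers and of 19882 protein-coding genes.

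The libraries came from A549 and HCC827, established human lung adenocarcinoma (LAD) lines, of which HCC827 carries mutant, amplified EGFR. Each line was transduced either with an empty vector (A549-vector, HCC827-vector) or with myr-AKT1 (A549-myr-AKT1, HCC827-myr-AKT1), an AKT1 made constitutively active by a myristoylation signal that holds it at the membrane. The study sought transcripts that respond to active AKT, and the comparison for each gene was myr-AKT1 against vector within a line. Each condition had 1 library, so a difference within a line has no replicate check, and neither the vector nor the promoter that drove myr-AKT1 for these libraries, nor whether the cells were clones or pools, is given in the sources used here.

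Class 3 semaphorins are secreted and bind neuropilins, which then signal through class A plexins or PLXND1, with the exception of SEMA3E, which binds PLXND1 directly. Classes 4 to 7 are tied to the membrane and bind plexins without a neuropilin, for example SEMA4D to PLXNB1, SEMA5A to PLXNB3 and SEMA7A to PLXNC1. Plexins act on the cytoskeleton and on adhesion through a GTPase-activating domain, and in epithelial tumours the families are known for both pro- and anti-invasive roles.

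Values within a line are given as normalised counts, which are reads divided by 1 size factor per library. The log2 fold change is the log2 ratio of the normalised count in myr-AKT1 to that in vector cells, and the range after it in brackets is its 95% Clopper-Pearson interval from the recovered reads, which covers counting error only. The libraries held from 16322183 to 33530317 reads. AKT1 itself was at 4243 normalised counts in A549-vector and 6297 in A549-myr-AKT1, and at 2175 in HCC827-vector and 4805 in HCC827-myr-AKT1, higher in both transduced libraries, although transduced and endogenous AKT1 cannot be told apart in these counts. All 5 epithelial markers (EPCAM, CDH1, KRT8, KRT18 and KRT19) had at least 10 normalised counts in every library, but they were not steady. In HCC827-myr-AKT1 KRT8 was 3.50-fold and KRT18 3.37-fold lower than with the vector, and in A549-myr-AKT1 KRT19 was 6.28-fold and CDH1 2.62-fold higher. CDKN2A, which A549 lacks, had 0 reads in both A549 libraries and 3452 and 2586 normalised counts in HCC827-vector and HCC827-myr-AKT1, and EGFR stood at 7500 and 8454 in the A549 libraries against 153714 and 68423 in the HCC827 libraries, so both lines carried the marks of their labels.

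Some markers of other cell types moved with myr-AKT1 in A549. Of the leukocyte markers, CD14 was at 34.9 normalised counts in A549-vector and 784 in A549-myr-AKT1 and at 15.9 and 85.6 in HCC827, PTPRC stayed under 10 in every library (0.873, 8.02, 3.97 and 0), and CD3E was at 0 in all 4 libraries. For 4 fibroblast markers the summed normalised count was 27.9 and 368 in A549, most of it LUM. In HCC827 the sum was 7.95 and 6.29, with LUM at 0.795 and 1.26, and COL1A2 was at 0 in all 4 libraries. For 3 endothelial markers the sum was 13.1 and 137 in A549 and 76.3 and 138 in HCC827. In A549 CDH5 was at 0.873 and 67.6, PECAM1 at 11.4 and 69.9, and VWF at 0.873 and 0. In HCC827 CDH5 was at 6.36 and 13.8, PECAM1 at 62.0 and 106, and VWF at 7.95 and 18.9. For 3 neuronal markers the sum was 3152 and 5926 in A549 and 680 and 945 in HCC827, where RBFOX3 and SNAP25 were at 0. In A549 these markers did not move together. SYT1 was at 1420 and 3764 and SNAP25 at 922 and 1690, but RBFOX3 was lower with myr-AKT1, at 810 and 472. The part of these genes and of the epithelial markers in the values below was not tested. In bulk RNA of this kind, fewer cells that express a gene and less RNA per cell cannot be told apart.

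Levels were compared between genes and lines as RPKM of the recovered reads, that is reads per kilobase of exon per 1000000 reads of the library. A few genes made up most of the family signal, and they differed between the lines. SEMA3C, a secreted semaphorin, and NRP1, a neuropilin that also binds VEGF, stood at 78.2 and 62.5 in A549-vector and at 83.9 and 55.1 in A549-myr-AKT1, together 56.3% and 48.5% of the summed level of all 31 genes. In HCC827-vector the highest were SEMA4B, a membrane semaphorin, at 50.9, and NRP1 at 45.4, together 43.2% of the sum. In HCC827-myr-AKT1 the highest were PLXNB2, a receptor for class 4 semaphorins and for angiogenin, at 73.6, and SEMA4B at 51.8, together 47.2%. PLXNB2 thus went from the third to the first place among the 31 genes in HCC827, and NRP1 went from the second to the fourth. The highest 5 genes held between 67.1% and 78.9% of the sum in each library. At the other end, SEMA6D had 0 reads in all 4 libraries, SEMA3D and SEMA6A had 0 reads in both HCC827 libraries, and PLXNA4 had 0 reads in HCC827-vector, while the other 27 genes had reads in all 4.

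**Figure D1:**
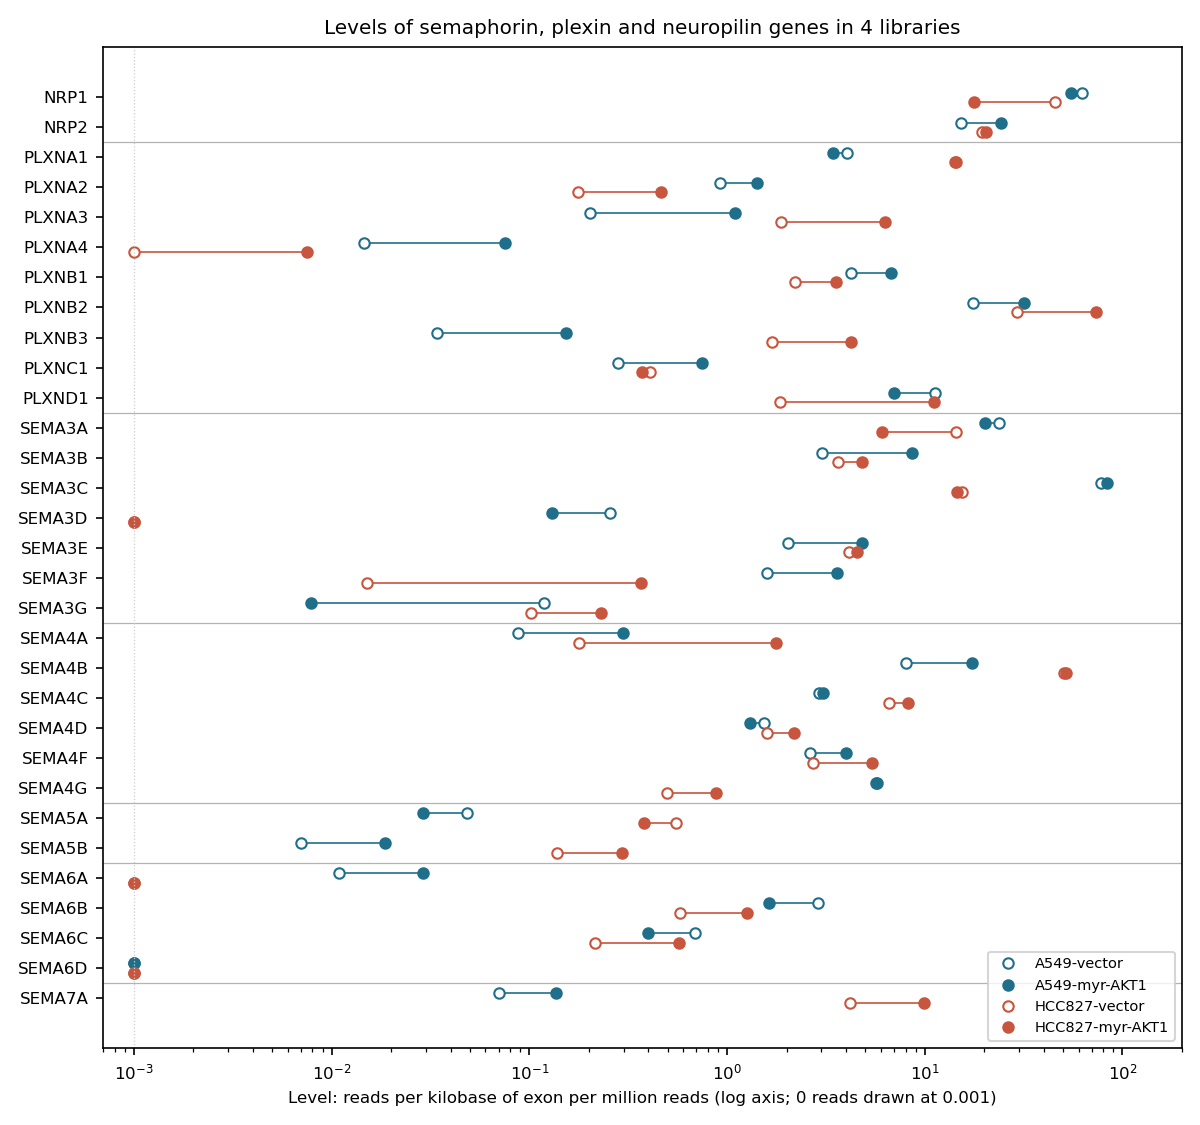
Level of each semaphorin, plexin and neuropilin gene (y axis) in RPKM of the recovered reads (x axis, log scale, 0 reads drawn at 0.001) in vector (open circles) and myr-AKT1 cells (filled circles) of A549 (blue) and HCC827 (red), 1 library each. NRP1, NRP2, SEMA3C and PLXNB2 sit at the right in both lines, with SEMA3A in A549 and SEMA4B in HCC827. SEMA7A, PLXNB3 and PLXNA3 lie further right in HCC827 than in A549.

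The families differed in how their summed level moved. The 9 plexins summed to 38.6 in A549-vector and 52.4 in A549-myr-AKT1, and to 51.9 in HCC827-vector and 114 in HCC827-myr-AKT1. The 2 neuropilins summed to 77.8 and 79.3 in A549 but to 64.9 and 38.2 in HCC827. The 20 semaphorins summed to 134 and 155 in A549 and to 106 and 113 in HCC827. In HCC827-myr-AKT1, then, plexins made up more of the family signal than neuropilins, the reverse of the order in the other 3 libraries.

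**Figure D2:**
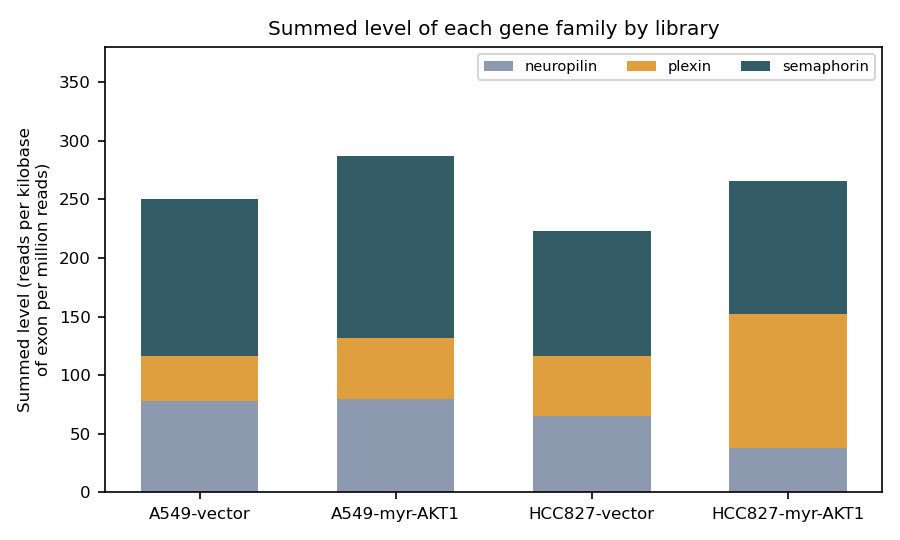
Summed level of the 2 neuropilins, 9 plexins and 20 semaphorins (stacked bars, RPKM of the recovered reads, axis from 0) in each of the 4 libraries (x axis). The plexin part grows from 51.9 to 114 and the neuropilin part shrinks from 64.9 to 38.2 between HCC827-vector and HCC827-myr-AKT1.

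A gene was counted as higher or lower when its log2 fold change was past 1 or -1 and its mean over the pair of libraries was at least 10 normalised counts. In A549, 27 of the 31 genes reached this mean and 9 of them were higher (33.3%), set beside 14.2% of all protein-coding genes that reached it. Only SEMA3D was lower in A549 (3.70%), set beside 8.25%. In HCC827, 27 genes reached the mean, 12 were higher (44.4%, beside 12.9%), and NRP1 and SEMA3A were lower (7.41%, beside 10.4%). Counting intervals lay wholly above 0 for 15 genes in A549 (36.3% of protein-coding genes) and wholly below 0 for 8 (42.0%), and above 0 for 18 genes in HCC827 (36.7%) and below 0 for 6 (41.1%). The median log2 fold change of these genes was 0.60 in A549 and 0.74 in HCC827, where that of all protein-coding genes was -0.05 and -0.04. PLXNA4, PLXNB3 and SEMA7A in A549 and SEMA3F in HCC827 reached a mean of 10 through the myr-AKT1 library alone, so these shares describe the genes that passed and no more. The mean was too low in A549 for SEMA3G, SEMA5B, SEMA6A and SEMA6D, and in HCC827 for PLXNA4, SEMA3D, SEMA6A and SEMA6D. Nearest to the minimum were SEMA3G, with a mean of 9.31, and SEMA7A, with 11.4, in A549, and PLXNA4, with 1.26, and SEMA3G, with 17.5, in HCC827.

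Of all protein-coding genes with the mean, 14.2% were higher and 8.25% lower in A549, and 12.9% and 10.4% in HCC827. By family, 4 of 9 plexins were higher in A549 (median log2 fold change 0.83) and 5 of 8 in HCC827 (median 1.25), and none was lower in either line. Of the 4 in A549, PLXNA4 and PLXNB3 reached the mean through the myr-AKT1 library alone. Of the semaphorins, 5 of 16 were higher and 1 lower in A549 (median 0.06), and 7 of 17 were higher and 1 lower in HCC827 (median 0.74). Across the lines, 4 genes were higher in both, namely PLXNA3, PLXNB3, SEMA3F and SEMA4A, of the 25 with the mean in both lines, where 4.73% of such protein-coding genes were. No member was lower in both, where 3.94% were. PLXNB3 in A549 and SEMA3F in HCC827 reached the mean through the myr-AKT1 library alone, so the count of 4 describes the genes that passed and no more. Of the 4, PLXNA3 alone had its interval wholly past 1 in both lines.

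**Figure D3:**
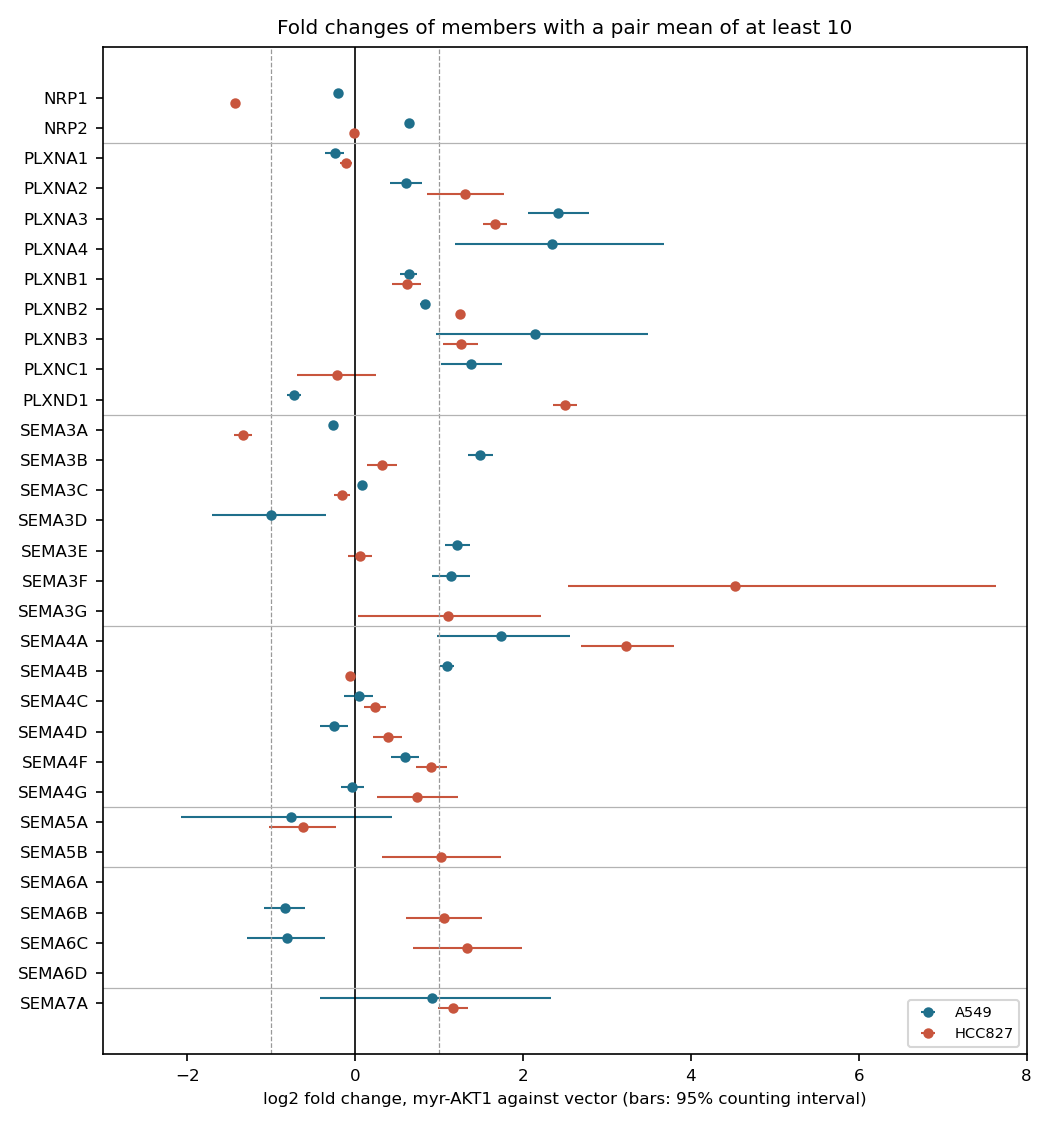
Log2 fold change, myr-AKT1 against vector (x axis), of each gene (y axis) with a pair mean of at least 10, in A549 (blue) and HCC827 (red), with 95% counting intervals as bars and dashed lines at 1 and -1. Both points of PLXNA3, PLXNB3, SEMA3F and SEMA4A lie right of 1, and those of PLXND1, SEMA6B and SEMA6C lie on opposite sides of 0.

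Of the neuropilins, NRP1, the co-receptor for SEMA3A and VEGF-A, was at 21080 normalised counts in A549-vector and 18304 in A549-myr-AKT1, and at 11358 in HCC827-vector and 4217 in HCC827-myr-AKT1. It was 2.69-fold lower with myr-AKT1 in HCC827 (log2 fold change -1.43, -1.48 to -1.38) and differed little in A549 (-0.20, -0.23 to -0.17). NRP2, the co-receptor for SEMA3F and VEGF-C, was at 6238 and 9714 in A549 (0.64, 0.59 to 0.68) and at 5871 and 5822 in HCC827 (-0.01, -0.07 to 0.04). In HCC827, NRP1 therefore exceeded NRP2 with the vector, at levels of 45.4 and 19.5 RPKM, but not with myr-AKT1, at 17.8 and 20.4. In A549 NRP1 remained above NRP2, at 62.5 and 15.3 with the vector and 55.1 and 24.2 with myr-AKT1.

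Among the class A plexins, the signalling receptors of neuropilin complexes, PLXNA3 alone was past 1 in both lines. It was at 69.9 normalised counts in A549-vector and 372 in A549-myr-AKT1, and at 479 in HCC827-vector and 1518 in HCC827-myr-AKT1. The fold change was 5.33 in A549 (log2 2.41, 2.06 to 2.78) and 3.17 in HCC827 (1.66, 1.52 to 1.81). PLXNA2 was at 372 and 565 in A549 (0.60, 0.41 to 0.79) and at 53.2 and 132 in HCC827 (1.31, 0.86 to 1.78), higher with myr-AKT1 in both lines but past 1 in HCC827 alone. PLXNA4, which is best known from neurons, was found at 8 reads in A549-vector and 31 in A549-myr-AKT1 (2.35, 1.19 to 3.68), and its 0 and 2 reads in HCC827 allow no fold. PLXNA1, by level the highest class A plexin in all 4 libraries, moved the other way and by little, from 1325 to 1119 in A549 (-0.24, -0.36 to -0.13) and from 3511 to 3265 in HCC827 (-0.10, -0.18 to -0.03).

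All 3 class B plexins, receptors of class 4 and 5 semaphorins, had more normalised counts with myr-AKT1 in both lines. Their counting intervals lay above 0 in both, where 20.3% of protein-coding genes with the mean in both lines had such intervals. PLXNB3 reached the mean in A549 through the myr-AKT1 library alone, so this count describes the genes that passed and no more. PLXNB2 was at 3744 and 6668 in A549 (0.83, 0.78 to 0.89) and at 4623 and 10986 in HCC827 (1.25, 1.20 to 1.30). PLXNB1, the SEMA4D receptor, was at 1214 and 1891 in A549 (0.64, 0.54 to 0.74) and at 467 and 715 in HCC827 (0.61, 0.44 to 0.78). PLXNB3, the SEMA5A receptor, was at 6.99 and 30.9 in A549, from 8 and 27 reads (2.15, 0.97 to 3.49), and at 256 and 612 in HCC827 (1.26, 1.05 to 1.46). The fold changes of PLXNB1 were thus nearly alike in the lines and below the threshold, while those of PLXNB3 were past it in both, on few reads in A549.

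The remaining plexins differed between the lines. PLXNC1, the SEMA7A receptor, was at 83.0 and 216 in A549 (1.38, 1.02 to 1.75) and at 89.0 and 76.8 in HCC827 (-0.21, -0.69 to 0.25). PLXND1, the SEMA3E receptor, was at 3168 in A549-vector and 1916 in A549-myr-AKT1 (-0.73, -0.81 to -0.64), and at 386 in HCC827-vector and 2184 in HCC827-myr-AKT1 (2.50, 2.35 to 2.65). Its 5.66-fold difference was the largest of any plexin in HCC827, and it brought the level there to 11.1 RPKM, near the 11.3 of A549-vector.

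The DNA just upstream of 4 of these genes is shown because PLXNA3 and PLXNB3 were higher in both lines, and PLXND1 and the class 6 semaphorin SEMA6C moved in opposite directions in them. It was taken from RefSeq windows on GRCh38.p14 and ends before the first base of the GENCODE gene, and capitals mark GC boxes, GGGCGG or its reverse complement CCGCCC, the core of SP1 family sites. The stretches are PLXNA3 at chrX:154458031-154458280 on the plus strand, PLXNB3 at chrX:153763999-153764195 on the plus strand, PLXND1 at chr3:129606677-129606926 on the minus strand and SEMA6C at chr1:151146632-151146881 on the minus strand.
PLXNA3: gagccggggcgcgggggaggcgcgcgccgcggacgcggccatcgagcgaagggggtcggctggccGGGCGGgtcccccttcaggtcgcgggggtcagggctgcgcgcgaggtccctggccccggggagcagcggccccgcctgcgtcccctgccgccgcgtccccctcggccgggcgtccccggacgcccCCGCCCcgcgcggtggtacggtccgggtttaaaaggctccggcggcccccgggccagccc
PLXNB3: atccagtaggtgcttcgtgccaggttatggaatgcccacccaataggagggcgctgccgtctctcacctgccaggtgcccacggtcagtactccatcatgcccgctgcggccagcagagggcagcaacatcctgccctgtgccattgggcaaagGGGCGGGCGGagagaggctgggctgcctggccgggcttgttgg
PLXND1: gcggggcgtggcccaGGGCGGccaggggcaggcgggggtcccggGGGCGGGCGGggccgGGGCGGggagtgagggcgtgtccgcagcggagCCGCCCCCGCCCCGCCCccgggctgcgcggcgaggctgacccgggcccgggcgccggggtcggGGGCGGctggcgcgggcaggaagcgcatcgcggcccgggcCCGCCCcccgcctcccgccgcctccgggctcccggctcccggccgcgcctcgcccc
SEMA6C: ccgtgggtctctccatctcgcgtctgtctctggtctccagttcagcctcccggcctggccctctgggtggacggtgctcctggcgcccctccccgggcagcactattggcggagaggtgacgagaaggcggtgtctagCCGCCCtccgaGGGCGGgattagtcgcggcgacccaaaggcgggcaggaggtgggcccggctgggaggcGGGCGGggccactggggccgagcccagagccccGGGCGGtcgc

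GC content was 82.8% for PLXNA3, 65.0% for PLXNB3, 88.8% for PLXND1 and 73.2% for SEMA6C, and GC boxes, counted with overlaps, numbered 2, 2, 9 and 4. Over the 27 of 31 genes that matched the RefSeq table, with 48 windows of 250 bases before a start, the median GC content was 64.8%, and it was 58.0% over all 35114 windows. A GC box was present in 62.5% of the windows of these genes and in 42.6% of all windows. A STAT motif, TTCNNNGAA, was present in 2.1% (1 window, SEMA3E) beside 6.6% of all windows, a FOXO motif, GTAAACA or TGTTTAC, in 2.1% (SEMA4B) beside 3.0%, and an AP-1 motif, TGANTCA, in 2.1% (PLXNC1) beside 6.6%. None of the last 3 motifs was present in the 4 stretches shown. These are matches of letters on both strands and are not measured sites.

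Class 3 semaphorins, the secreted ligands, did not move as a block. In A549, 3 of 6 with the required mean were higher and 1 was lower, beside 14.2% and 8.25% of all protein-coding genes. In HCC827 2 of 6 were higher and 1 was lower, beside 12.9% and 10.4%, and SEMA3F reached the mean there through the myr-AKT1 library alone. SEMA3A, the founding repulsive ligand and an NRP1 ligand, was at 6432 in A549-vector and 5359 in A549-myr-AKT1 (-0.26, -0.32 to -0.21), and at 2903 in HCC827-vector and 1154 in HCC827-myr-AKT1. In HCC827 it was 2.52-fold lower (-1.33, -1.44 to -1.23), in the same pair of libraries and the same direction as its co-receptor NRP1.

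SEMA3B and SEMA3F, neighbours on chromosome 3 that are known as candidate tumour suppressors in lung cancer, both had more normalised counts with myr-AKT1. SEMA3B was at 509 and 1433 in A549 (1.49, 1.35 to 1.64) and at 456 and 569 in HCC827 (0.32, 0.14 to 0.50). SEMA3F, an NRP2 ligand, was at 226 and 499 in A549 (1.14, 0.92 to 1.37). In HCC827 SEMA3F had 2 reads with the vector and 29 with myr-AKT1, a 23.0-fold ratio with a wide interval (4.52, 2.54 to 7.63). The genes are 78 kb apart on GRCh38.

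SEMA3E, the PLXND1 ligand, was at 504 and 1170 in A549 (1.22, 1.07 to 1.37) and at 757 and 789 in HCC827 (0.06, -0.09 to 0.21). The ligand and its receptor thus differed in opposite directions in A549, while in HCC827 the receptor differed and the interval of the ligand included 0. SEMA3C was the most abundant semaphorin in A549, at 13960 and 14770 (0.08, 0.05 to 0.11), and was at 2035 and 1827 in HCC827 (-0.16, -0.25 to -0.06), so that it was 1.06-fold higher in A549 and 1.11-fold lower in HCC827. SEMA3D had 71 reads in A549-vector and 27 in A549-myr-AKT1, and its log2 fold change of -1.004 (-1.70 to -0.35) lay on the threshold. It was not past -1 under the other 3 scalings tried. SEMA3G, known from endothelial cells, had 20 and 1 reads in A549, with a mean below 10, and 14 and 19 reads in HCC827 (1.10, 0.03 to 2.21), where the interval nearly reached 0.

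Class 4 semaphorins, membrane ligands of B and D plexins, ranged from -0.25 to 1.74 in log2 fold change in A549 and from -0.06 to 3.23 in HCC827. SEMA4A, known for its part in T cell priming, was at 17.5 in A549-vector and 58.4 in A549-myr-AKT1 (1.74, 0.97 to 2.57), and at 26.2 in HCC827-vector and 245 in HCC827-myr-AKT1 (3.23, 2.69 to 3.80). The difference was 3.34-fold in A549 and 9.36-fold in HCC827, from low levels in both lines. SEMA4B was at 1643 and 3504 in A549 (1.09, 1.01 to 1.18) but at 7727 and 7435 in HCC827 (-0.06, -0.10 to -0.01), where it was the semaphorin with the highest level in both libraries.

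The other 4 class 4 genes stayed within 1 on the log2 scale in both lines. SEMA4D, the PLXNB1 ligand, was at 637 and 535 in A549 (-0.25, -0.42 to -0.08) and at 487 and 637 in HCC827 (0.39, 0.21 to 0.56). SEMA4F was at 477 and 719 in A549 (0.59, 0.43 to 0.76) and at 369 and 692 in HCC827 (0.91, 0.73 to 1.09). The intervals of SEMA4C (0.04 in A549 and 0.24 in HCC827) and SEMA4G (-0.03 and 0.74) included 0 in A549 and lay above it in HCC827.

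Of classes 5 to 7, SEMA5B, SEMA6A and SEMA6D had a pair mean under 10 in at least 1 line. SEMA5A, the PLXNB3 ligand, was at 17.5 and 10.3 in A549 (-0.76, -2.08 to 0.44) and at 147 and 95.6 in HCC827 (-0.62, -1.03 to -0.23), and SEMA5B was at 25.4 and 51.6 in HCC827 (1.02, 0.32 to 1.73). The ligand SEMA5A thus had fewer normalised counts with myr-AKT1 in HCC827 and its receptor PLXNB3 had more. SEMA5B in A549, from 2 and 4 reads, and SEMA6A in A549, from 4 and 8 reads, had a pair mean under 10. SEMA6B was at 397 and 222 in A549 (-0.84, -1.09 to -0.59) and at 58.8 and 122 in HCC827 (1.05, 0.60 to 1.51). SEMA6C was at 117 and 66.4 in A549 (-0.82, -1.29 to -0.36) and at 27.0 and 67.9 in HCC827 (1.33, 0.68 to 1.99). Both class 6 genes with enough reads therefore stood lower with myr-AKT1 in A549 and higher in HCC827.

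SEMA7A, the only semaphorin anchored by a glycolipid and a ligand of PLXNC1 and of integrin beta-1, had its higher level in HCC827. It was at 346 in HCC827-vector and 775 in HCC827-myr-AKT1 (1.16, 0.98 to 1.34), and at 7.86 and 14.9 in A549 (0.92, -0.42 to 2.33). Its level in HCC827-vector was 4.20 RPKM, where A549-vector had 0.0706.

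Of the 25 genes with a mean of at least 10 in both lines, 9 had counting intervals above 0 in each, where 20.3% of such protein-coding genes did. Among these 9, PLXNB3 in A549 and SEMA3F in HCC827 reached the mean through the myr-AKT1 library alone. NRP1, PLXNA1 and SEMA3A had intervals below 0 in each, where 27.8% did, and 6 had intervals on opposite sides of 0. The opposite group was PLXND1, SEMA3C, SEMA4B, SEMA4D, SEMA6B and SEMA6C, where 16.5% of such protein-coding genes were of this kind, and under the other 3 scalings 5 of the 6 kept opposite signs, all but SEMA4B.

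A fit across all 4 libraries with cell line as a block (limma, 19314 genes, 1 residual degree of freedom) asked which differences were shared by both lines beyond their spread. It tested 28 of the 31 genes. PLXNA3 rose (log2 fold change 2.03, SE 0.361, adjusted p = 0.0311), and no other member had an adjusted p under 0.05, where 1.29% of the genes tested rose and 1.73% fell. Because the families were chosen with results of this contrast known, this p is given as a description of PLXNA3 among all genes. At an unadjusted p under 0.05 there were 10 members and 3557 genes. The next in order were PLXNB2 (1.04, SE 0.249, adjusted p = 0.075), SEMA4A (2.43, SE 0.638, adjusted p = 0.095), SEMA3F (2.50, SE 0.748, adjusted p = 0.132) and PLXNB3 (1.63, SE 0.543, adjusted p = 0.166). NRP1 (-0.82, SE 0.331, adjusted p = 0.242) and PLXND1 (0.89, SE 0.630, adjusted p = 0.52), which differed strongly in HCC827, were further from the threshold. The call of PLXNA3 was lost in edgeR with DESeq2 size factors (log2 fold change 2.10, adjusted p = 0.076), with a pseudocount of 0.1 in limma (2.04, adjusted p = 0.108) and without the cell line term (2.03, adjusted p = 1), and DESeq2's Wald test called 3 members.

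Beside the families themselves, 50 genes that act with them were described, 15 co-receptors and other receptors, 5 VEGF-family ligands of the neuropilins and 30 cytoplasmic effectors. In A549, 46 reached the mean of 10, 6 were higher and 2 were lower, with a median log2 fold change of 0.24. In HCC827, 37 reached it, 6 were higher and 1 was lower, with a median of 0.14. These shares, 13.0% and 16.2% higher, were near those of all protein-coding genes, 14.2% and 12.9%. In HCC827, 3 of the 6 higher genes, KDR, L1CAM and RND2, reached the mean through the myr-AKT1 library alone. The share there thus describes the genes that passed and no more.

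RND1 and NRCAM alone of the 50 were higher in both lines, where only 46 had the mean in A549 and 37 in HCC827. Of protein-coding genes with the mean in both lines, 4.73% were higher in both, so the count of 2 was near that share. RND1, a small GTP-binding protein that binds class A and B plexins and opens their GTPase-activating domain, was at 173 in A549-vector and 1927 in A549-myr-AKT1 (3.48, 3.27 to 3.70), and at 15.9 in HCC827-vector and 313 in HCC827-myr-AKT1 (4.30, 3.64 to 5.04). It rose in the limma fit (3.84, SE 0.423, adjusted p = 0.0084). NRCAM, an adhesion molecule of the L1 family that pairs with neuropilins in neurons, was at 1164 and 5210 in A549 (2.16, 2.07 to 2.25) and at 38.1 and 205 in HCC827 (2.43, 1.95 to 2.92), and it too rose in the limma fit (2.28, SE 0.318, adjusted p = 0.0163). These 2 were the only partners with an adjusted p under 0.05 in this limma fit, where 1.29% of the genes tested rose and 1.73% fell. KDR, FLT1, CRMP1, TREM2 and TYROBP did not pass its filter and were not tested. The list was chosen with earlier results of these data known, so these p values are given as descriptions. Both calls were lost with a pseudocount of 0.1 (adjusted p = 0.0669 for RND1 and 0.0833 for NRCAM) and without the cell line term (adjusted p = 1 for both), and both were kept in edgeR with either normalisation and in DESeq2.

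The relatives of RND1 were less alike. RND3 was at 1122 and 1706 in A549 (0.60, 0.50 to 0.71) and at 1540 and 2251 in HCC827 (0.55, 0.45 to 0.64), and RND2, at 18.3 and 35.5 in A549 (0.95, 0.11 to 1.83), had 2 and 42 reads in HCC827 (5.06, 3.11 to 8.15). All 3 members of the RND group had counting intervals above 0 in both lines, where 20.3% of protein-coding genes with the mean in both lines did. RND2 reached the mean in HCC827 through the myr-AKT1 library alone, so this count describes the genes that passed and no more.

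Other partners included receptors, an integrin subunit and a ligand. MET, a partner of class B plexins, was at 14646 and 15257 in A549 (0.06, 0.03 to 0.09) and at 43203 and 26923 in HCC827 (-0.68, -0.71 to -0.66). ERBB2, another partner of class B plexins, was at 2477 and 2882 in A549 (0.22, 0.14 to 0.30) and at 3944 and 4145 in HCC827 (0.07, 0.01 to 0.14). KDR, the VEGF receptor that works with NRP1, had 1 and 0 reads in A549 and 7 and 51 reads in HCC827 (3.53, 2.38 to 4.91). ITGB1, the integrin subunit that SEMA7A binds, was at 62109 and 77833 in A549 (0.33, 0.31 to 0.34) and at 41012 and 31441 in HCC827 (-0.38, -0.41 to -0.36). Of the ligands, VEGFA was at 1575 and 3278 in A549 (1.06, 0.97 to 1.14) and at 7724 and 9177 in HCC827 (0.25, 0.20 to 0.29).

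**Figure D4:**
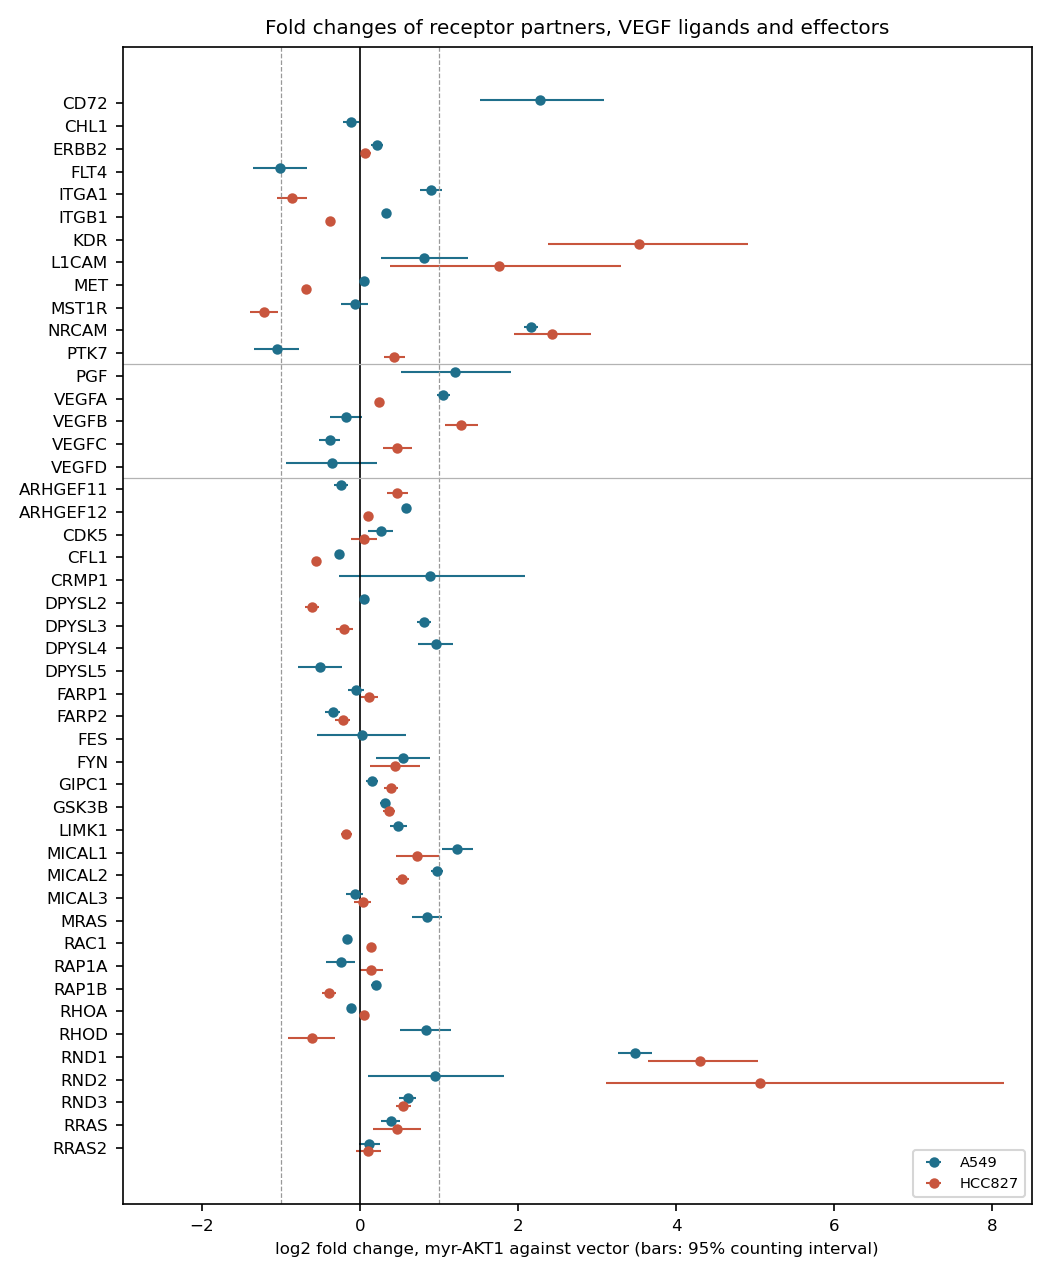
Log2 fold change, myr-AKT1 against vector (x axis), of receptors, VEGF-family ligands and cytoplasmic effectors that act with the families (y axis, in this order from the top), in A549 (blue) and HCC827 (red), for genes with a pair mean of at least 10. Bars are 95% counting intervals and dashed lines mark 1 and -1; both points of RND1 and NRCAM lie right of 2, and most effectors lie between the dashed lines.

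Several members overlap a gene on the opposite strand, and although the libraries were strand-specific, whether reads were counted by strand is not stated, so the signals of such a pair cannot be told apart where they overlap. LAGE3, which meets the end of PLXNA3, was at 272 and 266 in A549 and at 343 and 252 in HCC827, with no gain beside that of PLXNA3. CEP83, opposite PLXNC1, was at 961 and 340 in A549 and at 900 and 312 in HCC827, lower in both lines, whereas PLXNC1 was higher in A549 and had an interval that included 0 in HCC827. MRPL43, which spans the whole of SEMA4G on the other strand, was at 1514 and 964 in A549 and at 807 and 692 in HCC827, above SEMA4G, at 888 and 868 and at 57.2 and 95.6, in every library. PLXNB3-AS1 had 0 and 5 reads in A549 and 65.2 and 73.0 normalised counts in HCC827.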

How the data were processed

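RNA from vector and myr-AKT1 cells of A549 and HCC827 was sequenced as 4 libraries, 1 per condition, grouped by sample title. The study's methods describe strand-specific sequencing of selected polyadenylated RNA, the labels removal of ribosomal RNA. The authors mapped reads to hg38 with Bowtie2, which does not split reads over introns, and counted genes with HTSeq. The methods name RPKM, but the deposited signal is read counts divided by 1 size factor per library. Whole reads were recovered within 0.001 for all genes with reads except 1 in each vector library; 25190760 and 33530317 reads in A549-myr-AKT1 and A549-vector, 16322183 and 27312465 in HCC827-myr-AKT1 and HCC827-vector.

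Of 60558 identifiers, 60261 matched GENCODE 44 (GRCh38), and 297 did not. Fold changes within a line used the deposited normalised counts with no pseudocount. Their 95% Clopper-Pearson intervals cover counting error only, since reads are not independent molecules. Ratios are not tested, and none is given where both libraries had 3 reads or fewer. Values were given for genes past log2 1 or -1 with a pair mean of at least 10 in either line, and for partners past it in both lines plus MET, ERBB2, KDR, ITGB1 and VEGFA; other genes completing a family or group were added after their values were seen. Members and lists were chosen with earlier results of these data known. The fit used limma 3.58.1 with a mean-variance trend on log2(value + 1), edgeR's filterByExpr, cell line as block and Benjamini-Hochberg adjustment over 19314 genes. Alternatives were other scalings, filters, thresholds and pseudocounts, edgeR 4.0.16 and DESeq2 1.42.0 on recovered reads, and no cell line term. Scripts ran in R 4.3.3 and in Python 3.11.15 with pandas 2.3.3, scipy 1.17.1, numpy 2.4.6 and matplotlib 3.10.9. One marker of the leukocyte list is not reported here.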

Additional observations from a re-analysis of the deposited data

Results flagged for a closer look

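In 6 genes the counting intervals of both lines were clear of 0 and lay on opposite sides of it, which 16.5% of protein-coding genes with a pair mean of at least 10 in both lines also showed; whether the lines differed was not tested, because each condition had 1 library. The log2 fold changes were -0.73 in A549 and 2.50 in HCC827 for PLXND1, -0.84 and 1.05 for SEMA6B, and -0.82 and 1.33 for SEMA6C. They were -0.25 and 0.39 for SEMA4D, 0.08 and -0.16 for SEMA3C, and 1.09 and -0.06 for SEMA4B, whose HCC827 value changed sign when scaled by total reads.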

How the results depend on the processing

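The labels carry no replicate numbers, so the only pairing was by cell line, which the limma fit used as a block, and with 1 library per condition no replicate could be left out. Size factors over all 4 libraries moved the median of all protein-coding genes in A549 by 0.10 on the log2 scale, and no other scaling moved either line's median by more. SEMA4G in A549 (to 0.07), and NRP2 (to 0.07) and SEMA4B (to 0.02) in HCC827, changed sign under a scaling, and SEMA7A in A549 reached 1.02. The 9 members higher in A549 became 3 at a threshold of log2 2. PLXNB3, SEMA3F and SEMA4A dropped out with the interval wholly past 1, and PLXNA4, PLXNB3 and SEMA4A at a mean of 50. The 1 member lower in A549, SEMA3D, became 0 under TMM, total reads, size factors over 4 libraries, a pseudocount of 1, a mean of 50, a threshold of 2 or an interval wholly past -1, and 2 with reads in both libraries as the only filter, which adds SEMA3G. The 12 members higher in HCC827 became 3 at a threshold of 2 and 6 with the interval wholly past 1, and the 2 lower ones became 0 at a threshold of 2. SEMA3F, SEMA3G, SEMA5B and SEMA6C dropped out of the higher ones at a mean of 50. In the fit, 1 member and 585 genes were called; edgeR with TMM gave 1 and 424, edgeR with DESeq2 size factors 0 and 99, DESeq2's Wald test 3 and 1139, a pseudocount of 0.1 in limma 0 and 0 (7 members and 3184 genes at an unadjusted p under 0.05), a minimum of 1 read in any library 6 and 1995, and no cell line term 0 and 0 (0 and 631). The adjusted p of PLXNA3 ranged from 1.12e-05 to 1 over these. The log2 fold change of SEMA3C, -0.04 in limma, reversed to 0.0081 and 0.0387 in edgeR with TMM and with DESeq2 size factors and to 0.058 in DESeq2. The causes were not tested.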

Other observations

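PLXNB3 and PLXNA3, both higher with myr-AKT1 in both lines, lie 0.68 Mb apart on chromosome X (GRCh38), and the genes between them were examined after this had been seen. Of the 27 protein-coding genes between them, 18 had a pair mean of at least 10 in each line. In A549, 3 of the 18 were past log2 1 (beside 14.2% of all protein-coding genes) and 0 were past -1 (8.25%). In HCC827, 4 were past 1 (12.9%) and 0 past -1 (10.4%). The medians were 0.33 in A549 and 0.58 in HCC827, where those of all protein-coding genes were -0.05 and -0.04. L1CAM, a partner of neuropilins that lies there, was at 43.7 and 76.7 normalised counts in A549 and at 5.56 and 18.9 in HCC827, vector first. It is among the 4 in HCC827, where it reached the mean through the myr-AKT1 library alone. The count there thus describes the genes that passed and no more. A shared cause in this region was not tested.

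SEMA6A-AS1, a lncRNA opposite SEMA6A, had 18 and 4 reads in A549 and 33 and 3 reads in HCC827, vector first. Its log2 fold changes were -1.78 (-3.80 to -0.18) and -2.80 (-5.15 to -1.12). Of protein-coding genes with the mean in both lines, 3.94% were lower in both. SEMA6A-AS1 reached a mean of 10 through the vector library alone in both lines, so these values describe it and no more. SEMA6A itself had a pair mean under 10 in both lines.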
